A study of Mus musculus with 33 samples.

Results

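Genes of the Hippo pathway, 10 in number, were read in single mouse heart cells. Their rows were taken by gene symbol, and the genes were chosen with earlier results of these data known. Of the 14862 gene rows of the count table, 10 belong to them. They are the coactivators Yap1 and Wwtr1, the DNA-binding factor Tead1, its partner Vgll4, the kinases Stk3, Lats1 and Lats2, the scaffold Amotl1, and the target genes Ctgf and Cyr61. Each was set beside Ect2, the exchange factor of cytokinesis that the series is named for. The 33 cells came from ventricles of mice that carry the FUCCI reporter mAG-hGem, a green geminin fusion protein that accumulates from S phase to M phase. The reporter was common to all cells, and sorting split them by its fluorescence into 10 positive and 11 negative cells at embryonic day 14.5 (E14.5), and 6 positive and 6 negative cells at postnatal day 5 (P5). Single-cell cDNA was amplified as antisense RNA, and the labels call every cell a cardiomyocyte. Cells are named here by their titles (G and N for E14.5 positive and negative, P and N after L1 or L2 for P5).

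In the Hippo pathway, the kinase Stk3 (MST2) activates Lats1 and Lats2, and these phosphorylate the coactivators YAP (Yap1) and TAZ (Wwtr1), which are then kept in the cytoplasm or degraded. Unphosphorylated YAP and TAZ enter the nucleus and bind TEAD factors, which drive target genes such as Ctgf and Cyr61, while Vgll4 competes for TEAD. In the heart the pathway is known as a brake on cardiomyocyte proliferation. The regulation acts mainly on the proteins, so transcript levels do not report YAP activity directly.

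Promoters are printed first because they show which starts carry the letters that TEAD factors bind. Windows from 250 bases before to 50 bases after the annotated start were taken from RefSeq on GRCm38.p6. Windows were found for Yap1, Wwtr1, Vgll4, Lats1, Lats2, Amotl1, Cyr61 and Ect2. They were not found for Tead1, Stk3 and Ctgf. The TEAD letters GGAATG, or CATTCC on the other strand, occur in 14.7% of all 32851 windows. Position -1 is the last base before the start. The first base of the match lies at -103 for Cyr61, -141 for Yap1, -136 for Wwtr1 and -82 for Vgll4. One Lats2 window holds it at position 5 of the transcript, and Lats1, Amotl1 and Ect2 hold none. The 250 bases before the Cyr61 start (chr3:145649986-145650235, minus strand, no exon there) and 46 bases around each match of Yap1 (chr9:8004712-8004757, minus strand, no exon there), Wwtr1 (chr3:57576021-57576066, minus strand, no exon there) and Vgll4 (chr6:114969260-114969305, minus strand, within the gene but in no exon) read as follows, with the TEAD letters in capitals.
Cyr61: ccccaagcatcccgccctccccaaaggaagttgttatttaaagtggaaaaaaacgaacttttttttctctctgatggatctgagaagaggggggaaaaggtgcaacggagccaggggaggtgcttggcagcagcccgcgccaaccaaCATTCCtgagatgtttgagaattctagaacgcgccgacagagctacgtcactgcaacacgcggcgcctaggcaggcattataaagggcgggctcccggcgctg
Yap1: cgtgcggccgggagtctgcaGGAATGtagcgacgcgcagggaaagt
Wwtr1: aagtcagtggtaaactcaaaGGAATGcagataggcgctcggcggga
Vgll4: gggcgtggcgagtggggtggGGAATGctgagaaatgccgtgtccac

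The Ect2 promoter is shown for contrast, since Ect2 is the gene the targets are set against. Its first window holds no TEAD letters. It holds the CCAAT letters (ATTGG on the other strand) 3 times, at -96, at -55 and at position 2 of the transcript. At least 3 such matches occur in 3.37% of windows, and at least 1 in 37.4%. It also holds TTTGAA, or TTCAAA on the other strand, at -114 and at position 40 of the transcript. This is the core of the cell cycle element CHR, found in 17.9% of windows. A match is a description of letters only. The 250 bases before the start (chr3:27153879-27154128, minus strand) overlap an exon of the lincRNA gene 1700125G22Rik, transcribed from the other strand, and CCAAT is in capitals.
Ect2: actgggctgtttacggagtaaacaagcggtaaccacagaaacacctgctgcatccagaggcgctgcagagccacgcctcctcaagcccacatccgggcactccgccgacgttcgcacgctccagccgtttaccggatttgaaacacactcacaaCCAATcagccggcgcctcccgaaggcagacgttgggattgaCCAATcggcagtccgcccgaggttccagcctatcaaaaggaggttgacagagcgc

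Read totals ran from 2.55 to 38.5 M counts per cell (1 M is 1000000 counts), with a median of 12.8 M. Each GEO sample is 1 cell and no animal is named, so each group is 1 sample, and no test between groups was made. Values are counts per 1000000 (CPM). Cardiomyocyte markers (12 of 12 in the table) summed to 15767 to 45876 CPM in E14.5 positive and 18132 to 47660 CPM in E14.5 negative cells. At P5 they summed to 115 to 119477 CPM in positive cells but only 0.553 to 3293 CPM in negative cells, in which Myh7 was at 0. Endothelial markers (7 of 7) reached at most 26.1 CPM at E14.5, 300 to 13278 CPM in P5 negative cells and 4629 CPM in the P5 positive cell L2P12. Fibroblast and mural markers (8 of 9) reached 46775 CPM in the E14.5 negative cell N10 and 19501 CPM in the P5 negative cell L2N12. Markers of other cell types exceeded those of cardiomyocytes in all 6 P5 negative cells, in L2P12 and in N10. Every comparison with P5 negative cells therefore sets mostly different cell types side by side. N10 differed from L2P12 in that it still held 23424 CPM of cardiomyocyte markers, against 115 CPM in L2P12. Summed G2/M transcripts (22 genes) had a median of 6943 CPM in positive cells at E14.5, of 56.1 CPM in negative ones, and of 8784 and 267 CPM at P5. The P5 positive cell L2P10 had 29.9 CPM of them, and the E14.5 negative cell N24 had 1791 CPM.

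Yap1 transcripts were present in most E14.5 cells, and their level differed little between positive and negative ones. Yap1 (chromosome 9, 7931999 to 8004596, minus strand) ran in E14.5 positive cells from 0 in G28, with a median of 26.4 CPM, to 112 CPM in G8. It ran in E14.5 negative cells from 0.835 CPM in N3, with a median of 47.6 CPM, to 209 CPM in N21. The ranges overlapped, and 7 of 10 positive and 10 of 11 negative cells reached 10 CPM. Over the summed counts Yap1 was at 47.5 CPM in positive cells (exact 95% Poisson interval 46.5 to 48.6) and at 61.0 CPM in negative cells (59.9 to 62.1) of that age. These and all later intervals cover counting error only, and the cells spread far more widely. In the cell order L2P10, L2P3, L2P7, L2P8, L2P12 and L1P5, the P5 positive cells had 1.19, 11.8, 27.4, 76.0, 158 and 455 CPM. The highest of them, L1P5, is the shallowest library of the series, and L2P12, the cell led by endothelial markers, gave 48.8% of the Yap1 counts of its group. In P5 negative cells L2N9 had 123 CPM, L2N10 had 21.7 CPM and the other 4 had at most 9.14 CPM. Exons of Yap1 overlap those of Gm20416 on the other strand, and whether counting used strand is not stated, so reads of both cannot be told apart.

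Wwtr1, the gene of TAZ, was less even than Yap1 (chromosome 3, 57455649 to 57575910, minus strand). E14.5 positive cells ran from 0.156 CPM in G27, with a median of 76.1 CPM, to 351 CPM in G25. E14.5 negative cells ran from 0 in N3, with a median of 11.7 CPM, to 410 CPM in N21. The medians lay further apart than the summed levels, 90.1 and 76.7 CPM, because N21, N25, N10 and N30 held 140 to 410 CPM and the other 7 negative cells at most 13.3 CPM. P5 positive cells ran from 0 in L1P5, with a median of 11.1 CPM, to 192 CPM in L2P12, which gave 77.6% of the group's counts. P5 negative cells were the highest by summed counts, at 376 CPM, with a median of 59.3 CPM, and 81.0% of the counts came from L2N7 at 891 CPM.

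The coactivator genes were often but not always found together. Of all 33 cells, 16 had at least 10 CPM of both, 8 of Yap1 only, 6 of Wwtr1 only and 3 of neither. Cells with Yap1 only were G8, G27, N5, N7, N8, N23, L1P5 and L2P8, and cells with Wwtr1 only were G5, G6, G28, L1N3, L2N7 and L2N12. Some of them lay just under the line of 10 CPM for the other gene. N5, L2P8, N8 and N7 had 9.46, 8.11, 7.53 and 6.57 CPM of Wwtr1, and L2N12 and G5 had 9.14 and 7.27 CPM of Yap1. No E14.5 negative or P5 positive cell had Wwtr1 only, and no P5 negative cell had Yap1 only. G27 held 95.9 CPM of Yap1 and 0.156 CPM of Wwtr1, whereas G28 held 0 and 74.7 CPM.

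**Figure D1:**
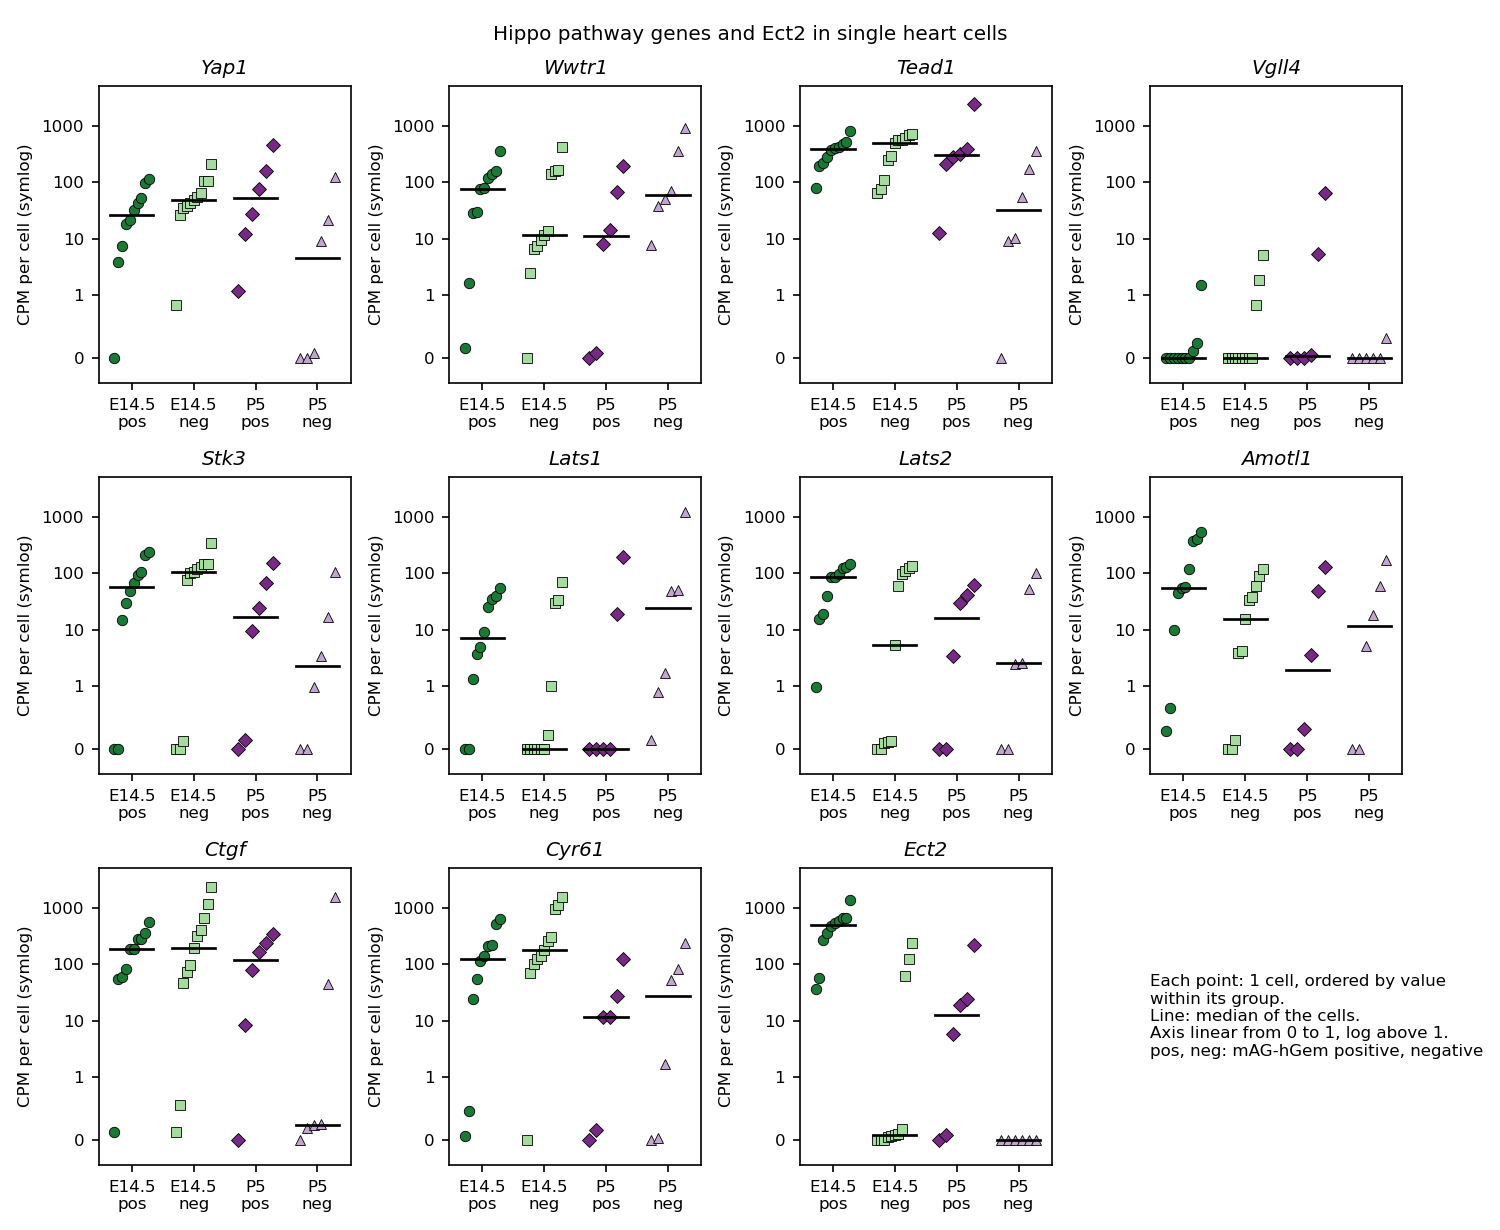
CPM per cell of the 10 pathway genes and Ect2 in E14.5 positive (n = 10), E14.5 negative (n = 11), P5 positive (n = 6) and P5 negative (n = 6) cells, on an axis that is linear from 0 to 1 CPM and logarithmic above; each point is 1 cell and the line is the median. Tead1 reached 10 CPM in every E14.5 and P5 positive cell, Vgll4 in 1 cell of 33, and Ect2 was at 0 in all P5 negative cells.

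Tead1, the DNA-binding partner of YAP and TAZ (chromosome 7, 112679318 to 112906807, plus strand), reached 10 CPM in more cells than any other of the 10 genes. It did so in all 21 cells at E14.5, and at P5 in 6 of 6 positive and 4 of 6 negative ones. E14.5 positive cells ran from 78.1 CPM in G28, with a median of 380 CPM, to 811 CPM in G29. E14.5 negative cells ran from 63.6 CPM in N3, with a median of 486 CPM, to 696 CPM in N25. P5 positive cells had 12.8 CPM in L2P12, 211 to 382 CPM in 4 cells and 2372 CPM in L1P5. Thus the lowest was the cell led by endothelial markers and the highest the shallowest library. P5 negative cells ran from 0 in L2N4, with a median of 31.7 CPM, to 348 CPM in L2N12.

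Vgll4, which competes with YAP for TEAD, was almost absent at E14.5 (chromosome 6, 114860628 to 114969994, minus strand). It had 22 counts over the 10 E14.5 positive cells, with 1.48 CPM in G8 as the highest, and 164 counts over the 11 negative cells, with 5.13 CPM in N10. At P5, L2P8 had 64.6 CPM and gave 96.2% of the counts of the positive group, L2P7 had 5.35 CPM, and the other 4 cells had at most 0.0444 CPM. The 9 counts of the P5 negative group all came from L2N7. A group value of 19.5 CPM in P5 positive cells thus describes 1 cell.

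The kinase Stk3 (chromosome 15, 34875496 to 35178921, minus strand) was at or above 10 CPM at E14.5 in 8 of 10 positive cells and in 8 of 11 negative ones. Positive cells ran from 0 in G5 and G25, with a median of 57.0 CPM, to 236 CPM in G28, and negative cells from 0, with a median of 106 CPM, to 345 CPM in N10. P5 positive cells ran from 0 in L2P7, with a median of 16.8 CPM, to 150 CPM in L1P5. P5 negative cells had a median of 2.22 CPM, and L2N9, at 103 CPM, gave 76.8% of their counts. Both medians at E14.5 stood above both at P5, and the ranges of all 4 groups overlapped.

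Lats1, which phosphorylates YAP (chromosome 10, 7681214 to 7716460, plus strand), was at 10 CPM or more in a minority of cells at E14.5. It reached that level in 4 of 10 E14.5 positive cells, led by G6 at 54.8 CPM, and in 3 of 11 E14.5 negative cells, led by N25 at 69.5 CPM. Among P5 positive cells L1P5 had 193 CPM, L2P8 had 18.9 CPM and the other 4 had 0. The highest value of any cell was 1209 CPM in the P5 negative cell L2N4, which gave 79.7% of its group's counts and has 5.15 M counts in all. In that group all 6 cells had a read of Lats1 and 3 reached 10 CPM.

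Lats2, the other LATS kinase and itself a known YAP target (chromosome 14, 57689662 to 57758388, minus strand), separated E14.5 negative cells into high and low ones. E14.5 positive cells ran from 0.982 CPM in G29, with a median of 85.7 CPM, to 143 CPM in G25, and 9 of 10 reached 10 CPM. In E14.5 negative cells N10, N30, N8, N24 and N21 held 59.1 to 133 CPM, and the other 6 held at most 5.34 CPM. P5 positive cells ran from 0 in L1P5 and L2P3, with a median of 16.3 CPM, to 61.1 CPM in L2P8. P5 negative cells had a median of 2.51 CPM and reached 101 CPM in L2N9. Exons of Lats2 overlap those of Gm49361 on the same strand, so some reads may be shared.

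Amotl1, an angiomotin-family scaffold that binds YAP (chromosome 9, 14541966 to 14645056, minus strand), was led by 3 E14.5 positive cells. G27 had 528 CPM, G8 had 394 CPM and G10 had 375 CPM. The median of the group was 55.0 CPM, its lowest cell was G28 at 0.292 CPM, and G27 alone gave 61.5% of its counts. E14.5 negative cells ran from 0 in N7 and N28, with a median of 15.5 CPM, to 119 CPM in N10. P5 positive cells had a median of 1.90 CPM, and L2P12, at 126 CPM, gave 67.6% of their counts. P5 negative cells had a median of 11.7 CPM, and L2N7, at 169 CPM, gave 82.7%.

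Ctgf and Cyr61, secreted matricellular proteins and the usual readouts of YAP and TAZ, were present in most E14.5 cells. Ctgf (named Ccn2 in current annotation, chromosome 10, 24595442 to 24598683, plus strand) ran in E14.5 positive cells from 0.119 CPM in G25, with a median of 185 CPM, to 565 CPM in G2. In E14.5 negative cells it ran from 0.119 CPM in N7, with a median of 191 CPM, to 2304 CPM in N21. The medians were close, and the summed levels of 168 and 409 CPM differed through a few high negative cells, since N21 gave 35.8% of the negative counts and N5 had 1152 CPM. P5 positive cells ran from 0 in L2P12, with a median of 119 CPM, to 344 CPM in L2P7. Of the P5 negative counts 97.8% came from L2N10, at 1547 CPM, and the median cell had 0.242 CPM. Exons of Ctgf overlap those of Gm15270 on the other strand, and their reads cannot be told apart either.

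Cyr61 (Ccn1, chromosome 3, 145646976 to 145649981, minus strand) had in E14.5 positive cells a lowest value of 0.0597 CPM in G25, a median of 125 CPM and a highest of 616 CPM in G2. E14.5 negative cells had 0 in N7, a median of 179 CPM and 1548 CPM in N10. N10, the E14.5 cell with high fibroblast and mural markers, gave 41.0% of the negative counts, and N21 had 1129 CPM. P5 positive cells had 0 in L2P3, a median of 11.7 CPM and 124 CPM in L2P7. P5 negative cells had a median of 26.8 CPM and reached 236 CPM in L2N10.

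Cells high in 1 of these targets were mostly high in the other at E14.5. Across the 10 E14.5 positive cells the rank correlation of Ctgf with Cyr61 was 0.81, and it stayed between 0.73 and 0.93 when any 1 cell was left out. Among 5237 genes Cyr61 ranked 19 by its correlation with Ctgf. Across the 11 E14.5 negative cells the correlation was 0.68 (0.58 to 0.79 without 1 cell), rank 77 of 4837. In the 6 P5 positive cells it was 0.31 (-0.20 to 0.80). Both genes of a point come from 1 library and share its depth and amplification. Given the total counts the E14.5 values were 0.78 and 0.71. G25 and N7 had both targets near 0 while their Yap1 stood at 52.9 and 47.6 CPM, and G2, with the most of both targets among E14.5 positive cells, had 18.0 CPM of Yap1.

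**Figure D2:**
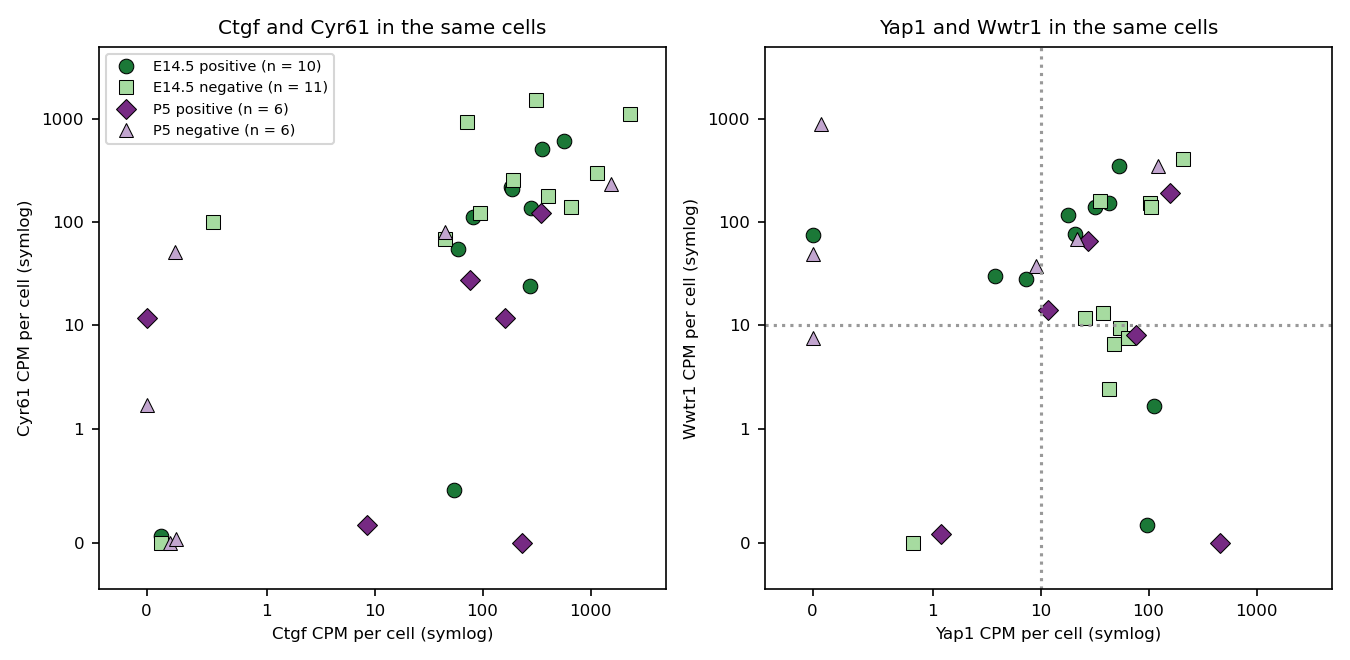
Left, Cyr61 against Ctgf, and right, Wwtr1 against Yap1, in CPM per cell on axes linear below 1 and logarithmic above; each point is 1 cell, marked by group, and dotted lines stand at 10 CPM. The targets mostly rise together in E14.5 cells (rank correlations 0.81 in positive and 0.68 in negative cells). Some cells lie apart, such as G6 (54.9 CPM of Ctgf, 0.461 CPM of Cyr61) and N28 (0.553 and 101 CPM). Only Yap1 reaches 10 CPM in 8 cells and only Wwtr1 in 6, and some of these lie just under the line for the other gene.

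Of the 45 pairs among the 10 genes, 6 had a rank correlation of at least 0.5 in E14.5 positive cells and none was at or below -0.5. The median over pairs was 0.18. In E14.5 negative cells the median was 0.24, with 7 pairs at or above 0.5 and 1, Lats1 with Cyr61, at or below -0.5. Yap1 went with Lats2 in both groups, at 0.61 (0.55 to 0.72 without 1 cell) and 0.57 (0.43 to 0.75). The values were 0.43 and 0.35 without the 2 cells farthest from the median of Yap1. Pearson's correlation on a log2 scale was 0.19 and 0.58. Yap1 with its target Ctgf stood at -0.31 in E14.5 positive and 0.50 in E14.5 negative cells, and Yap1 with Cyr61 at 0.13 and 0.38. With 10 or 11 cells these are descriptions. The share of pairs past 0.5 among all genes was not computed, so the counts of pairs cannot be set against it.

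Between the mAG-hGem positive cells of both ages, Stk3, Lats2, Amotl1 and Cyr61 were lower at P5, and Yap1, Wwtr1, Tead1, Lats1 and Ctgf lay within 2-fold. A gene is called here when its summed CPM differ by at least 2-fold with at least 10 counts over both groups. Vgll4 was the 1 member called higher, against 30.3% of all 12246 genes called higher, and 4 were called lower, against 40.9%. The members' shares lie near or under these backgrounds. Over all genes the median log2 ratio, P5 over E14.5, was -0.39. Cyr61, a target, was at 28.02 against 141 CPM, a log2 ratio of -2.33 (-2.39 to -2.27, exact Clopper-Pearson interval). Amotl1 was at 45.4 against 209 CPM (-2.20), Stk3 at 26.0 against 90.0 CPM (-1.79) and Lats2 at 28.01 against 77.5 CPM (-1.47). Ect2 was lower too, at 41.4 against 482 CPM (-3.54). The ranges of single cells overlapped for each of the 10 genes and for Ect2.

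Several of these ratios rest on single cells. Without L2P12, whose endothelial markers stand above its cardiomyocyte markers, Wwtr1 was at 18.0 against 90.1 CPM, a log2 ratio of -2.33 in place of -0.57, and became the fifth member called lower. The backgrounds were then 24.5% higher and 49% lower, with an all-gene median of -0.93. Yap1 was at 0.73 with all cells, at 0.17 without L2P12 and at 1.31 without G27. Stk3 moved to -2.84 and Amotl1 to -3.42 without L2P12. Lats1 stood at -1.18 without L1P5, in place of -0.24, and Amotl1 at -1.23 without G27. Ctgf passed 2-fold at -1.12 without L2P7. With equal weights for cells Stk3 lay within 2-fold (-0.94), while Yap1 (1.65) and Lats1 (1.04) were called higher and Wwtr1 (-1.06) lower. Vgll4 stood at 7.13 with all cells and at 2.88 without L2P8. Without L2P7 the log2 ratios of Cyr61 and Ect2 were -3.44 and -5.16, and that of Lats2 was -2.42 without L2P8.

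**Figure D3:**
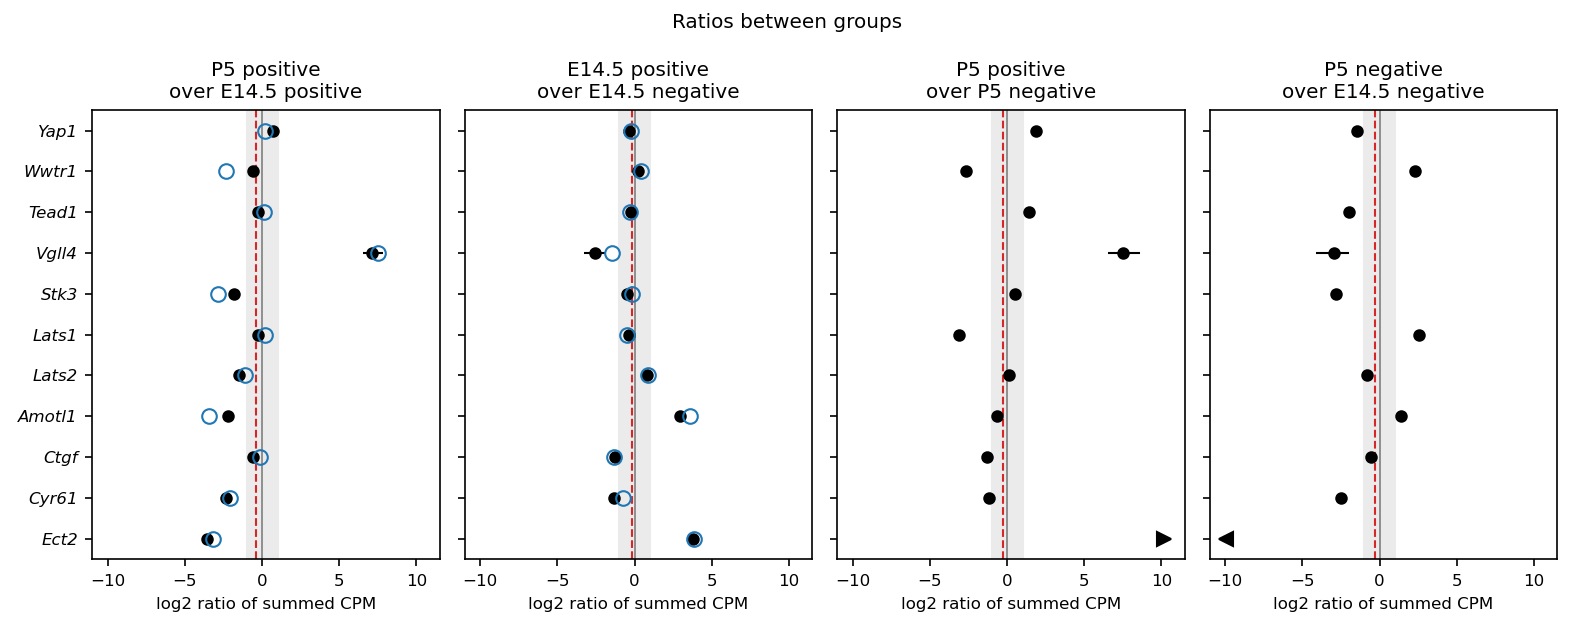
Log2 ratio of summed CPM for the 10 genes and Ect2 in the 4 comparisons; black points carry exact 95% intervals (counting error only), triangles are bounds where a group had no count, blue circles leave out L2P12 (first panel) or N10 (second panel), the grey band is 2-fold and the red dashed line is the median of all genes. In the first panel Cyr61 (-2.33), Amotl1 (-2.20), Stk3 (-1.79) and Lats2 (-1.47) lie below the band, and Wwtr1 leaves it without L2P12.

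Within E14.5, Amotl1 was higher in positive cells and both targets were lower by summed counts. Amotl1 was at 209 against 27.2 CPM, a log2 ratio of positive over negative of 2.94 (2.90 to 2.99), and was the 1 member called higher, against 22.4% of all genes. Ctgf (-1.29), Cyr61 (-1.36) and Vgll4 (-2.59, from traces) were called lower, against 28.9% of all genes, and the all-gene median was -0.16. Without N10, whose fibroblast and mural markers stand above its cardiomyocyte markers, Cyr61 stood at -0.74, within 2-fold, while Ctgf stood at -1.32. Then 1 member was higher and 2 were lower, against 24.1% and 27.6% of all genes. Ctgf left the call in the same way without N21, at -0.74, and within title numbers 1 to 10 it stood at -0.49. Amotl1 stood at 1.97 without G27. The median cells of Ctgf differed far less, at 185 and 191 CPM. The other 6 members lay within 2-fold, among them Yap1 (-0.36), Wwtr1 (0.23), Tead1 (-0.25) and Lats2 (0.81). Ect2 was 13.6-fold higher in positive cells. All single-cell ranges overlapped.

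At P5 the positive cells, mostly led by cardiomyocyte markers, had more Yap1 and Tead1 and less Wwtr1 and Lats1 by summed counts than the negative cells, which were led by markers of other types. The log2 ratios of positive over negative were 1.85 for Yap1, 1.42 for Tead1 and 7.49 for Vgll4, the 3 members called higher, against 34.2% of all genes. They were -2.64 for Wwtr1, -3.12 for Lats1, -1.28 for Ctgf and -1.16 for Cyr61, the 4 called lower, against 39.4% of all genes. Without L2N10 the ratio of Ctgf became 3.94 and that of Cyr61 0.11, so the direction of both rests on that cell. Wwtr1 stood at -0.85 and Tead1 at 0.86 without L2N7, and Lats1 at -0.91 without L2N4, all within 2-fold. With cells thinned to 8 M counts, which leaves out L1P5, L1N3 and L2N4, Yap1 stood at 0.52 and Tead1 at 0.73. The ranges of single cells overlapped for all 10 genes. Ect2, without a single count in the negative cells, was at least 1143-fold higher in the positive ones (floor of 3 counts for the group).

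Between the negative cells of both ages, cell type and age cannot be told apart. Wwtr1 (log2 ratio of P5 over E14.5 of 2.29), Lats1 (2.54) and Amotl1 (1.37) were called higher at P5, against 33.5% of all genes. Yap1 (-1.47), Tead1 (-1.95), Vgll4 (-2.95), Stk3 (-2.82) and Cyr61 (-2.53) were called lower, against 41.7%. Without L2N7, Wwtr1 stood at 0.50, Amotl1 at -0.56 and Yap1 at -0.87, and without L2N4 Lats1 stood at 0.33, all within 2-fold. Lats2 and Ctgf lay within 2-fold, but Lats2 stood at -1.70 without L2N9 and Ctgf at -5.79 without L2N10.

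In positive E14.5 cells the levels of Yap1 and Ect2 shared no clear order. There Ect2 (chromosome 3, 27097222 to 27153878, minus strand) ran from 36.5 CPM in G2, with a median of 501 CPM, to 1332 CPM in G5. The rank correlation of Yap1 with Ect2 was 0.16 (-0.03 to 0.45 without 1 cell), against a median of -0.08 and a 5th to 95th percentile of -0.58 to 0.48 over 5237 genes. Ctgf stood at -0.44, Cyr61 at -0.43 and Wwtr1 at -0.38, all inside that range. Both cells with the least Ect2, G2 and G10 (36.5 and 56.4 CPM), held the most Ctgf (565 and 358 CPM) and the most Cyr61 (616 and 510 CPM). These cells also had summed G2/M transcripts of 1077 and 4475 CPM. G6 and G1 had 2986 and 3487 CPM of them, with 651 and 348 CPM of Ect2. The part of cycle stage in this was not tested. G5, with the most Ect2, had 7.27 CPM of Yap1, 283 CPM of Ctgf and 137 CPM of Cyr61.

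In E14.5 negative cells Ect2 was above traces in N10 (61.5 CPM), N24 (121 CPM) and N21 (239 CPM), and the other 8 held at most 0.178 CPM. Ranks among those 8 rest on a few reads. N21, N24 and N10 held 2304, 664 and 316 CPM of Ctgf, 1129, 141 and 1548 CPM of Cyr61, and 209, 38.2 and 103 CPM of Yap1. Lats2 had the highest rank correlation with Ect2 of the 10 genes, at 0.80 (0.73 to 0.89 without 1 cell), above 99.6% of 4838 genes. It was 0.63 without N24 and N21, and the Ect2 values of the remaining cells are then traces apart from N10. Wwtr1 stood at 0.61, Ctgf at 0.57, Yap1 at 0.54 and Cyr61 at 0.35, beside a 5th to 95th percentile of -0.56 to 0.58. N30 and N8 held 95.7 and 108 CPM of Lats2 with Ect2 at 0.178 and 0.0802 CPM.

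In P5 positive cells Ect2 ran from 0 in L1P5, with a median of 12.4 CPM, to 219 CPM in L2P7, which gave 71.9% of the counts. L2P7 also held the most Ctgf (344 CPM) and Cyr61 (124 CPM) of its group, with 27.4 CPM of Yap1. L1P5, with the most Yap1, had no read of Ect2. Across these 6 cells Yap1 stood at -0.26 (-0.70 to 0.30 without 1 cell) and Ctgf and Cyr61 at 0.49 each, inside the 5th to 95th percentile of -0.60 to 0.77 over 1926 genes. Of the 10 genes Stk3 alone lay outside that range, at -0.83 (-1 to -0.70 without 1 cell). It reached 10 CPM in 3 of the 6 cells. No P5 negative cell had a read of Ect2, while L2N9 and L2N10 held 123 and 21.7 CPM of Yap1.

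**Figure D4:**
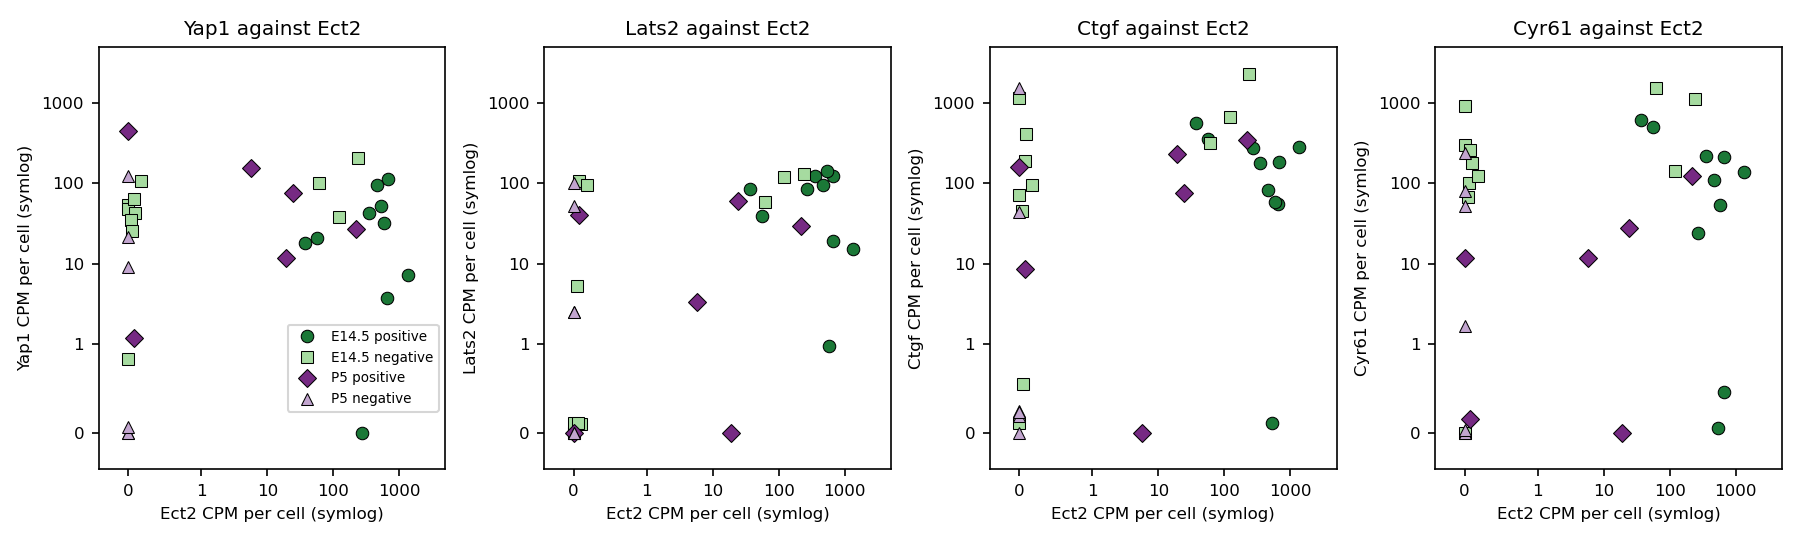
Yap1, Lats2, Ctgf and Cyr61 against Ect2 in CPM per cell, on axes linear below 1 and logarithmic above; each point is 1 cell, marked by group. E14.5 positive cells spread over 36.5 to 1332 CPM of Ect2 without a common direction for Yap1 (rank correlation 0.16), and the cells with the least Ect2 among them lie highest for Ctgf and Cyr61.

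The genes most like Yap1 across the 21 E14.5 cells were outside the pathway. Among 4494 genes with at least 10 CPM in at least 11 of these cells, the highest rank correlations were those of Npc2 (0.84), Cdc37 (0.76), Eif1 (0.72), Ftl1 (0.70) and Rab11a (0.70). They encode a lysosomal cholesterol carrier, a kinase co-chaperone, a translation initiation factor, a ferritin light chain and a vesicle GTPase. Npc2 stood at 0.79 in E14.5 positive and 0.82 in E14.5 negative cells alone. Of the pathway genes Lats2 came at rank 160 (0.48) and Tead1 at rank 499 (0.35). The targets Cyr61 and Ctgf came at ranks 983 (0.24) and 1463 (0.15), Amotl1 at rank 1181 (0.20), Stk3 at rank 1624 (0.13), Wwtr1 at rank 1845 (0.09) and Ect2 at rank 2464 (0.00). The 95th percentile of all genes was 0.44.

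The wider pathway was read from 5 lists of genes. Between P5 positive and E14.5 positive cells, 1 of 20 YAP target genes was higher and 12 were lower by at least 2-fold, with a median log2 ratio of -1.29, or -1.08 with 4 genes at 0 in a group set to their bounds. Of all genes 30.3% were higher and 40.9% lower, with a median of -0.39. Without L2P12 it was 1 higher and 12 lower of 19, at -1.95 (-1.11 with bounds). Beside this 24.5% of all genes were higher and 49% lower, with a median of -0.93. Under DESeq2 size factors, which set the all-gene median to 0.00, the target median was -0.91. Then 2 targets were higher and 10 lower, beside 35.3% and 35.7% of all genes. With cells thinned to 8 M counts 17 of 20 were lower, at -2.04, beside 42.2% of all genes and a median of -0.50. Leaving out 1 cell moved the median from -2.37 (without L2P8) to -0.90 (without G2, with 8 of 18 lower). The all-gene medians were then -0.49 and -0.33, and 39.9% of all genes were lower without G2. Of the 12 targets lower with all cells, Myof, Fjx1 and Axl had 10, 14 and 42 counts in E14.5 positive and none in P5 positive cells. The bound of Myof, -0.96, is within 2-fold. F3 and Nt5e were under 10 CPM in both groups. Of Igfbp3, the 1 called higher, 99.9% of the counts came from 1 cell. The target list was drawn up with results of these data known and shares Ctgf, Cyr61 and Lats2 with the 10 genes. Amotl2, an angiomotin-family YAP partner and target, was at 208 CPM in E14.5 positive cells (58.6 CPM at the lowest, 165 CPM at the median) and at 22.0 CPM in those of P5 (log2 ratio -3.24). In the latter it ran from 0 to 104 CPM, so the ranges overlapped. Ankrd1, a cardiac YAP target, stood at 4954 and 2483 CPM (-0.997), and its median cells at 3342 and 3496 CPM.

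Of 18 kinases and scaffolds tested, 4 were higher and 8 lower at P5 (median -0.63), beside 30.3% and 40.9% of all genes and a median of -0.39. Of 12 YAP partners and inhibitors 4 were higher and 5 lower (-0.65), and without L2P12 3 and 8 (-2.31). The kinases and scaffolds were then 4 and 9 (-1.04), beside 24.5% and 49% of all genes and a median of -0.93. The 4 partners and inhibitors higher with all cells were Amot, Ajuba, Vgll4 and Csnk1d. In each, 1 cell gave most of the P5 counts, at 100%, 97.3%, 96.2% and 87.7%. Of 8 upstream polarity genes and cadherins 4 were higher and 2 lower (0.63), but without L2P12 they were 2 and 4 of 7 (-1.14). Of 5 coactivator and TEAD genes 1 was higher and 1 lower (-0.29), and without L2P12 0 and 2 (-0.997). Among the higher genes of these lists, 1 cell gave 99.7% of the P5 counts of Fat4 and 100% of those of Dchs1. For Scrib and Tead2 it gave 68.1% and 99.7%. Rassf1, a scaffold that binds MST kinases, was at 75.8 against 19.96 CPM (1.93), with 44.4% of the P5 counts from L2P12. The atypical cadherin Fat1 was at 24.8 against 72.3 CPM (-1.54), and 99.6% of its P5 counts came from L2P7. Mpp5, a polarity protein, was at 31.6 against 64.4 CPM (-1.03), and L2P12 gave 66.2% of its P5 counts. Without L2P12 it was at 14.2 CPM (-2.19).

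**Figure D5:**
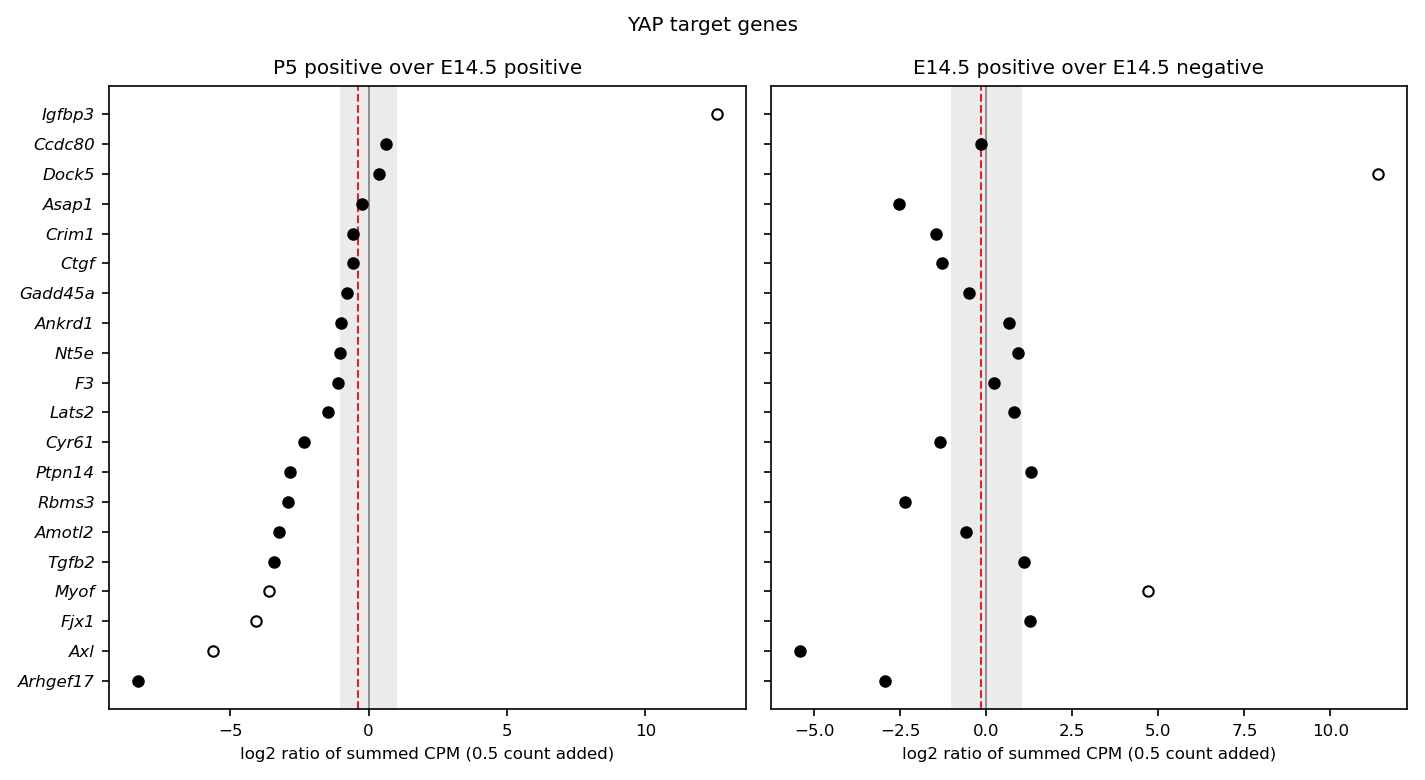
Log2 ratio of summed CPM (0.5 count added to each side) of 20 YAP target genes, P5 positive over E14.5 positive (left) and E14.5 positive over E14.5 negative (right); open points had no count in 1 group and are not bounds, the grey band is 2-fold and the red dashed line is the median of all genes. On the left 12 genes lie below the band and 1 above it, and on the right 5 lie above it. The right panel draws the genes of the left one. Nuak2, 1 of the 8 called lower there, is therefore not drawn, and Igfbp3, not tested there, has no point.

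Within E14.5, 5 of 20 target genes were higher in positive cells and 8 lower (median -0.33), beside 22.4% and 28.9% of all genes and a median of -0.16. Without N10 they were 8 and 6, beside 24.1% and 27.6%. Without N21 they were 7 and 7 with a median of 0.056, beside 23.5% and 27.6% of all genes and a median of -0.12. Asap1, an Arf GTPase-activating protein, was at 14.3 against 83.7 CPM (-2.54), Rbms3, an RNA-binding protein, at 25.1 against 130 CPM (-2.37), and Fat1 at 72.3 against 154 CPM (-1.09). Of 18 kinases and scaffolds 3 were higher and 6 lower, of 12 partners and inhibitors 3 and 4, of 7 upstream genes 0 and 3, and of 5 coactivator and TEAD genes 0 and 1. Against P5 negative cells, 3 of 20 targets were higher in P5 positive cells and 15 lower (-1.51), beside 34.2% and 39.4% of all genes and a median of -0.29. Without L2N12 they were 6 and 10 of 18 (-1.41), beside 40.2% and 34.7% of all genes and a median of 0.12. With equal weights for cells they were 4 and 11 (-1.17), beside 34.9% and 39.1% of all genes and a median of -0.23. For all 15 lower targets but Amotl2 (39.6%), 1 cell gave most of the P5 negative counts, from 53.1% for Crim1 to 99.9% for Myof. Of the 3 higher, 1 cell gave 49.4% of the P5 positive counts of Ankrd1, 79.5% of Nt5e and 100% of Tgfb2. Ankrd1 stood at 2483 against 0.265 CPM there, a log2 ratio of 13.19, and the kinase Map4k3 at 32.8 against 116 CPM (-1.83). Of P5 negative over E14.5 negative cells, 4 of 20 targets were higher and 6 lower (-0.17), beside 33.5% and 41.7% of all genes and a median of -0.28. Without L2N12 they were 4 and 10 of 19 (-1.20), beside 29.8% and 48.2% of all genes and a median of -0.81. Under DESeq2 size factors they were 7 and 6 (0.068), beside 36.6% and 39.4% and a median of -0.04. Tgfb2, a growth factor, was at 73.6 CPM at E14.5 and had no count at P5, at least 2034-fold lower. Ankrd1 (-13.53) and Fat1 (-7.06) were also lower there and Map4k3 was higher (1.32).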

How the data were processed

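Reads per gene were measured in 33 single cells, and per the labels single-cell cDNA was amplified as antisense RNA before TruSeq libraries were made. The labels state that cells were accepted after a PCR for Tnnt2, which the table lists below 10 CPM in 1 of 6 positive cells at P5 and in 4 of 6 negative ones. The authors deposited raw read counts for 14862 gene rows. The submitters' processing notes name CASAVA 1.8.2, STAR 2.4.0j, HTSeq 0.6.1p1 and build mm10. The annotation and the strand setting are not given in the sources used here. Amplified reads without molecular identifiers are not independent molecules, so intervals and floors cover counting error only.

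For each group, the counts of its cells were added up and scaled by the added totals to CPM (Python 3.11.15, numpy 2.4.6, scipy 1.17.1, pandas 2.3.3, matplotlib 3.10.9). The 22 rows named by calendar dates stayed in the totals and out of gene lists. Each group is 1 sample, so there are no p-values. A call is a log2 ratio, with 0.5 count added to each side, of at least 1 in size and at least 10 counts over both groups. Printed ratios of single genes have no added count. Ratios without 1 cell, and the list medians, keep the added count. Correlations are Spearman's across the cells of 1 group, beside all genes with at least 10 CPM in at least 5 cells. The calculation was tested on simulated data. Alternatives were equal weights for cells, thinning to 8 M counts (4 cells left out), TMM factors (edgeR 4.0.16) and DESeq2 1.42.0 size factors in R 4.3.3, totals without the 20 genes with the most counts, no minimum count, leaving out cells led by other markers, title number ranges and leaving out each cell.

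The 10 genes and all lists were chosen with earlier results of these data known. Besides them, the text names the 3 highest and 3 lowest called list genes of a comparison with at least 50 CPM in the higher group, at least 10 CPM in 50% of its cells and no cell over 50% of its counts. Ankrd1 between positive cells was named after its values were seen. Gene positions come from GENCODE on GRCm38, which mm10 denotes, and promoters from RefSeq on GRCm38.p6. Of the red blood cell markers 2 of 6 and of the leukocyte markers 3 of 5 were matched by symbol, and beta globin rows under older symbols were not summed. Red blood cell markers reached 983 CPM in L2N10 and 0 outside the P5 negative cells, and leukocyte markers reached 379 CPM in N21.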

Additional observations from a re-analysis of the deposited data

Results flagged for a closer look

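In 17 of 32 combinations of a gene and a group of 6 or 10 cells, 1 cell stood further from its neighbour than Dixon's 95% limit allows. Chance gives about 1 in 20 groups, or 1.60 here, but the genes share cells and sparse values are uneven by nature. The group of 11 cells was too large for this limit.

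At E14.5, positive cells stood apart for Wwtr1 (G25 at 351 CPM, next 154 CPM), Ect2 (G5 at 1332 CPM, next 665 CPM) and, at trace level, Vgll4 (G8 at 1.48 CPM, next 0.238 CPM). Among P5 positive cells the shallow library L1P5 stood apart for Yap1 (455 CPM, next 158 CPM), Tead1 (2372 CPM, next 382 CPM) and Lats1 (193 CPM, next 18.9 CPM). It has 2.55 M counts and 3983 genes with a read. L2P12, led by endothelial markers, stood apart for Wwtr1 (192 CPM, next 65.4 CPM). L2P8 did so for Vgll4 (64.6 CPM, next 5.35 CPM), and L2P7 for Cyr61 (124 CPM, next 27.6 CPM) and Ect2 (219 CPM, next 24.2 CPM).

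Of the P5 negative cells, all led by markers of other cell types, L2N9, L2N4, L2N7 and L2N10 stood apart. L2N9 did so for Yap1 (123 CPM, next 21.7 CPM) and Stk3 (103 CPM, next 16.9 CPM), and L2N4 for Lats1 (1209 CPM, next 49.9 CPM). L2N7 did so for Amotl1 (169 CPM, next 59.6 CPM) and, from 9 counts, for Vgll4 (0.317 CPM, next 0). L2N10 did so for Ctgf (1547 CPM, next 44.8 CPM) and Cyr61 (236 CPM, next 81.3 CPM).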

How the results depend on the processing

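Apart from leaving out single cells, 297 of 352 log2 ratios of the 10 genes and Ect2 moved by less than 1.5-fold, 55 moved further and no called ratio changed direction. Of 64 counts of called members 59 stayed within 1.5 times. The 1 member called higher in P5 positive over E14.5 positive cells became 3 with equal weights for cells (Yap1, Vgll4 and Lats1), 2 with DESeq2 size factors (Yap1 and Vgll4) and 2 with E14.5 title numbers 1 to 10. Of all genes 28.4%, 35.3% and 32.7% were then called higher. For E14.5 positive over negative the 1 member called higher became 2 with title numbers 1 to 10 (Lats1 and Amotl1), against 30.7% of all genes. For P5 positive over negative 3 became 1 with cells thinned to 8 M counts, against 32.6%. DESeq2 size factors moved the all-gene median of the first comparison from -0.39 to 0.00.

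Leaving out 1 cell gave 1 to 2 members higher (2 without G27) and 4 to 5 lower in P5 positive over E14.5 positive, 1 to 2 higher and 2 to 3 lower (2 without N10 or N21) in E14.5 positive over negative, 3 to 5 higher (5 without L2N9) and 2 to 4 lower (2 without L2N10) in P5 positive over negative, and 1 to 3 higher (1 without L2N7) and 4 to 6 lower in P5 negative over E14.5 negative. It changed the direction of 3 called ratios, namely Ctgf (3.94) and Cyr61 (0.11) in P5 positive over negative without L2N10 and Amotl1 (-0.56) in P5 negative over E14.5 negative without L2N7. Without other cells these ran down to -1.89 for Ctgf (without L2N7) and -2.27 for Cyr61 (without L2P7), and up to 2.001 for Amotl1 (without N10). The rank correlation of Yap1 with Ect2 ran from -0.033 (without G8) to 0.45 (without G5) in E14.5 positive, from 0.39 to 0.71 in E14.5 negative and from -0.70 (without L2P10) to 0.30 (without L1P5) in P5 positive cells. Leaving out cells led by other markers could not be run against P5 negative cells, since none remains. No paired analysis was possible because no result comes from a test and title numbers name single cells. With 6 to 11 cells a group and 1 cell often holding most counts of a gene, the number of cells limits these values, and so do single cells of low depth. What set single cells apart was not tested.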
